A study of Mus musculus with 23 samples.

Results

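The 2 lists described here map FLAG-tagged BACH1 in mouse embryonic stem cells. Both came from 1 chromatin immunoprecipitation (ChIP) sample, and they were taken whole: a scored list of 2134 peaks and a merged list of 9321 regions that gives positions only. Together they hold 11455 of the 243327 regions in the 12 peak lists of the series. The cells were DoxBach1-Flag mESCs, an E14Tg2A line that carries Bach1 with a FLAG tag at its C-terminus on a piggyBac transposon, treated with 0.5 μg/μL doxycycline for 6 hours per the labels. Chromatin was captured on anti-FLAG M2 gel, and whether the line is 1 clone is not known here. The series has 23 samples, among them 6 RNA libraries and 4 inputs, and 10 further lists map NANOG (2 replicates per genotype), H3K4me1, H3K4me3 and H3K27ac (1 list per genotype each) in Bach1 -/- (knockout, made with CRISPR/Cas9) and wild-type (WT) mESCs without the transgene. By the sample titles, NANOG replicate 1 has 2 ChIP samples per genotype and replicate 2 has 1. Each NANOG replicate has 1 list per genotype. All cells grew on gelatin in serum with leukemia inhibitory factor.

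BACH1 is a basic leucine zipper factor of the CNC family. It pairs with small MAF proteins, binds Maf recognition elements and is best known as a repressor of heme oxygenase and other oxidative stress genes, a hold that heme releases. H3K4me3 marks promoters, H3K4me1 marks enhancers, H3K27ac marks active elements of both kinds, and NANOG is a homeobox factor of pluripotent cells. The FLAG map shows the tagged protein after forced expression, so it reports where this protein was recovered and not where BACH1 sits at its own level. There was no replicate, no list of a FLAG ChIP from uninduced or untagged cells was analysed here, and read depth is unknown. No difference below therefore has a replicate check or a p-value, and intervals are 95% Wilson intervals that cover the counting of regions only. Coordinates are mm9 with the first base as 1. No mm9 gene positions or sequence were used, so regions are not assigned to genes and the map was not checked against known BACH1 target sites.

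The scored list was long on weak peaks, with a thin tail of strong ones. The score is the authors' and equals 10 times the −log10 p of the older MACS peak caller. It started at 50.01, had a median of 72.5 with quartiles of 57.6 and 112, and ended at 870.5. In all, 660 peaks (30.9%) lay below 60 and 836 (39.2%) between 60 and 100. Another 452 (21.2%) lay between 100 and 200, 170 (7.97%) between 200 and 500, and 16 (0.750%) at 500 or above. Since the lowest score stood at the edge of the list, regions just under it are unknown from this list alone.

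Stronger peaks were wider. The scored peaks measured 284 to 3474 bp, with a median of 804 bp and a mean of 866 ± 342 bp (SD over peaks), and 541 of them (25.4%) reached 1000 bp. In the 4 quartile groups of score, of 533 or 534 peaks each and taken from low to high, the median width was 692, 740, 827 and 1018 bp. Score and width had a Spearman correlation of 0.46 across the 2134 peaks, a description of values drawn from the same reads. The list covered 1.85 Mb in all.

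**Figure D1:**
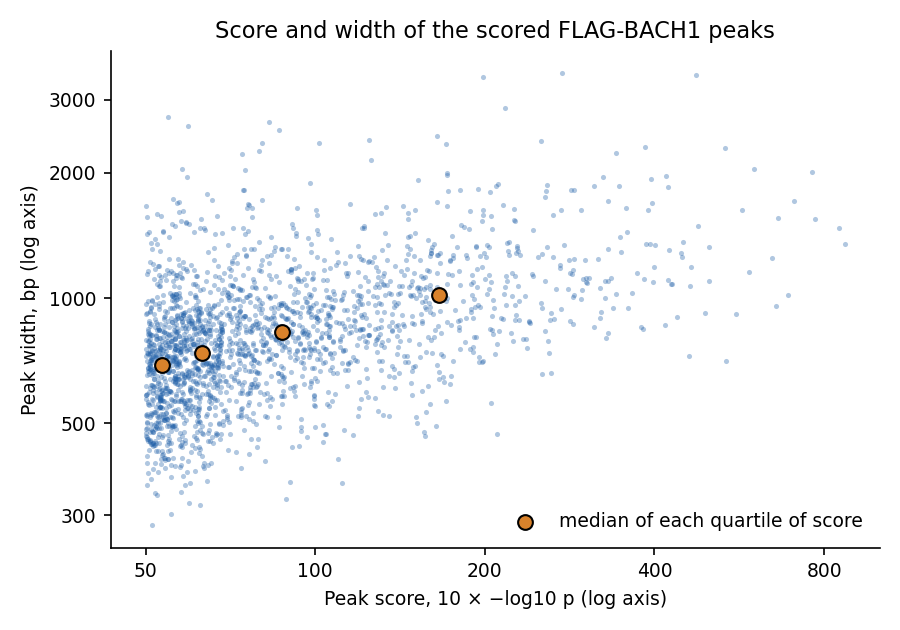
Each point is 1 scored FLAG-BACH1 peak, with its score on the horizontal axis and its width in bp on the vertical axis, both logarithmic. The large points are the medians of the quartiles of score, which climb from 692 bp in the lowest quartile to 1018 bp in the highest, while most peaks crowd between scores of 50 and 100.

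The 10 highest scores ran from 599.56 to 870.5, in peaks of 956 to 2045 bp. They lay on chromosome 11 in 3 cases, on chromosomes 8 and 16 in 2 cases each and on other chromosomes in 3 cases. The highest, chr8:87025100-87026450 with a score of 870.5, overlapped WT peaks of H3K4me3, H3K4me1 and H3K27ac and no WT NANOG peak. The second, chr19:41529055-41530527 with 849.14, overlapped H3K4me1, H3K27ac and a NANOG peak of replicate 1 without H3K4me3, an enhancer-type combination. The third, chr3:122958783-122960332 with 770.01, carried H3K4me3, H3K4me1 and NANOG of replicate 1 without H3K27ac. The next, chr8:77606560-77608565 with 761.6, again had all 3 histone marks. A further peak of the same chromosome, chr8:77612846-77614477, ranked 12th with 571.33 and lay only a few kilobases away, at H3K4me1 and a NANOG peak of replicate 2.

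High scores also occurred outside the mapped marks. The peaks chr11:81988042-81989059, with a score of 691.06, and chr2:20505263-20506218, with 656.13, overlapped no WT peak of any of the 3 histone marks or of NANOG. The other 4 of the 10 were chr16:9131865-9133574 with 708.35, at H3K4me1 and NANOG of replicate 1, chr16:90220469-90222027 with 663.72 and chr11:76758601-76759849 with 647.23, both at H3K4me3 and H3K27ac, and chr11:75273560-75275604 with 599.56, at all 3 marks. Of the 10, 6 overlapped H3K4me3, 6 H3K4me1, 6 H3K27ac, 3 a NANOG peak of replicate 1 and 0 one of replicate 2.

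The widest peaks were not the strongest. The 3 widest were chr11:8533393-8536866 at 3474 bp with a score of 273.69, chr11:52171921-52175353 at 3433 bp with 473.93, and chr11:8484688-8488096 at 3409 bp with 198.71. All 3 lay on chromosome 11 and overlapped WT H3K4me1 and a NANOG peak of replicate 1, and none overlapped WT H3K4me3. The narrowest, chr7:127820890-127821173, had 284 bp and a score of 51.25.

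Scored peaks mostly stood alone. The median distance to the nearest other scored peak, edge to edge, was 169 kb, with quartiles of 49.1 and 515 kb. Only 190 of 2134 peaks (8.90%, 7.77 to 10.2%) had another within 10 kb and 33 (1.55%) had one within 1 kb, whereas 1856 (87.0%) had one within 1000 kb. Score had little steady relation with spacing, with a Spearman correlation of -0.06 between score and nearest distance over 2132 peaks. From the lowest to the highest quartile of score, the median nearest distance was 169, 198, 188 and 138 kb. In the same order, 10.1, 5.99, 8.07 and 11.4% of peaks had another within 10 kb. The longest stretch without a scored peak between 2 others was 25.1 Mb, at chr1:95125124-120264556.

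A few scored peaks came in groups. Joined at gaps of up to 10 kb, the list formed 1944 single peaks, 86 pairs, 4 groups of 3 and 1 group of 6. The group of 6 lay at chr5:136410585-136439097, over 28.5 kb, with scores of 150.83, 76.78, 86.17, 227.89, 78.29 and 60.70 in order along the chromosome. The groups of 3 were chr11:88792753-88799634 with scores of up to 79.16, chr14:68654771-68669584 with up to 77.77, chr6:67094852-67097374 with up to 162.58 and chr8:34757075-34771484 with up to 157.61. None of the grouped peaks at these 5 places was among the 10 highest scores.

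**Figure D2:**
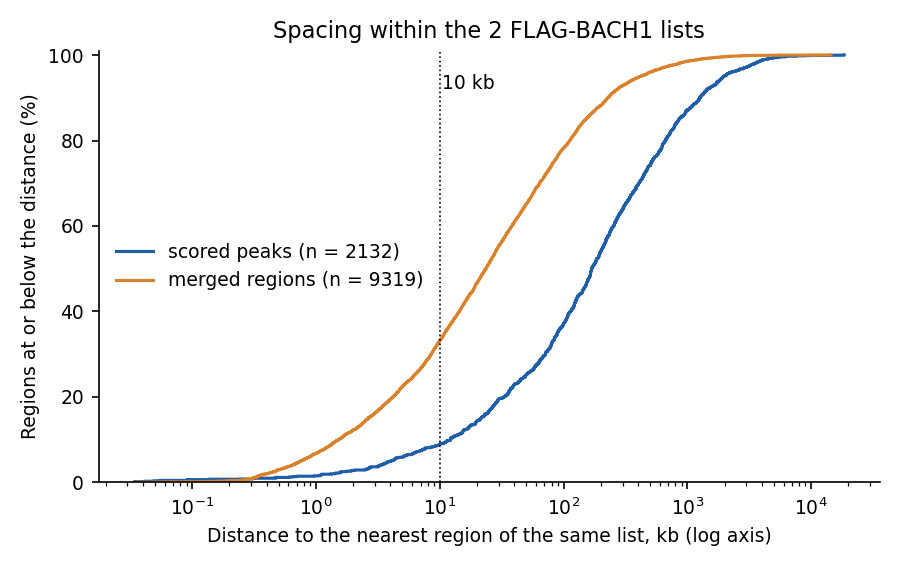
Lines give the share of regions whose nearest neighbour in the same list lies at or below the distance on the logarithmic horizontal axis in kb. At the dotted line at 10 kb, 8.90% of the scored peaks and 33.2% of the merged regions have a neighbour.

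The merged list contained the scored list and added many narrow regions. All 2134 scored peaks fell inside a merged region, and no merged region cut a scored peak short. Of the 9321 merged regions, 2131 (22.9%, 22.0 to 23.7%) held a scored peak, and the other 7190 (77.1%) are called merged-only here. The list's own name points to 2 merged sets and carries the value 0.05, which the labels do not explain, so what was merged and at which threshold was not established. The merged list has 4.37 regions for each scored peak.

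Where a scored peak existed, merging changed its position little. Of the 2131 merged regions with a scored peak, 1818 (85.3%) had exactly its start and end, and 313 were longer than the scored peaks they held, by a median of 150 bp and at most 1106 bp. The longest extension was at chr8:35022330-35025317. Scored peaks were joined in pairs at 3 places, chr1:140799885-140801218, chr3:80825643-80827215 and chr11:75273560-75277423. The last of these holds the peak with the tenth highest score.

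What the merged list added was narrower than what it shared with the scored list. Scored peaks had a median width of 804 bp and merged-only regions one of 385 bp, with quartiles of 321 and 494 bp. Widths under 500 bp were found in 176 scored peaks (8.25%) and in 5449 merged-only regions (75.8%), and widths of at least 1000 bp in 541 scored peaks (25.4%) and 125 merged-only regions (1.74%). Merged-only regions covered 3.16 Mb, 62.3% of the 5.08 Mb of the merged list. The 3 widest were chr8:44381419-44384092 at 2674 bp, at WT peaks of all 3 marks, chr17:35958262-35960123 at 1862 bp, at H3K4me3, H3K27ac and NANOG of replicate 2, and chr11:88367658-88369486 at 1829 bp, at H3K4me1.

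**Figure D3:**
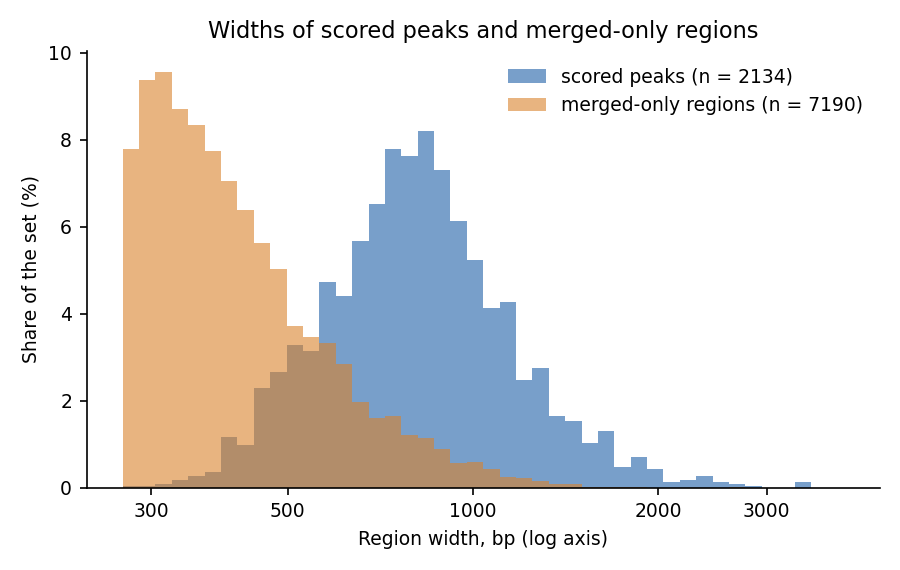
Histograms give the share of scored peaks and of merged-only regions by width in bp on a logarithmic axis. The scored peaks have a median of 804 bp and the merged-only regions, piled up at the left, one of 385 bp.

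Most merged-only regions were not shoulders of scored peaks. Their median distance to the nearest scored peak was 153 kb, 626 of 7190 (8.71%) lay within 10 kb of one and 107 within 1 kb. Seen from the other side, 500 scored peaks (23.4%) had a merged-only region within 10 kb. The merged list is longer and was more crowded: the median nearest distance was 169 kb for scored peaks and 23.6 kb for merged regions. For merged regions the median was 8.76 kb on chromosome 11 and 12.9 kb on chromosome 8, against 26.4 to 64.8 kb on the other 17 autosomes. For scored peaks it was 97.8 and 74.6 kb, against 152 to 380 kb. Joined at 10 kb, merged regions formed 348 groups of 3 or more and 67 of 5 or more, and the largest, of 12 at chr11:100236848-100290405, held merged-only regions alone. The second largest, of 11 at chr8:34988370-35028428, held 1 region with a scored peak among them.

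The added regions fell heavily on chromosomes 11 and 8. Chromosome 11 held 238 scored peaks (11.2%, 9.89 to 12.6%) and 1834 merged-only regions (25.5%, 24.5 to 26.5%). Chromosome 8 held 156 scored peaks (7.31%, 6.28 to 8.49%) and 923 merged-only regions (12.8%, 12.1 to 13.6%). On the other 17 autosomes the shares ranged from 2.62% on chromosome 18 to 7.69% on chromosome 2 for scored peaks and from 1.66% on chromosome 19 to 5.91% on chromosome 4 for merged-only regions. Chromosome X had 31 scored peaks (1.45%) and 12 merged-only regions (0.167%). In the other 10 lists of the series it held 1.20 to 3.62% of the peaks, a range with the scored share inside and the merged-only share below. There were 2 scored peaks and 0 merged-only regions on unplaced sequence.

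**Figure D4:**
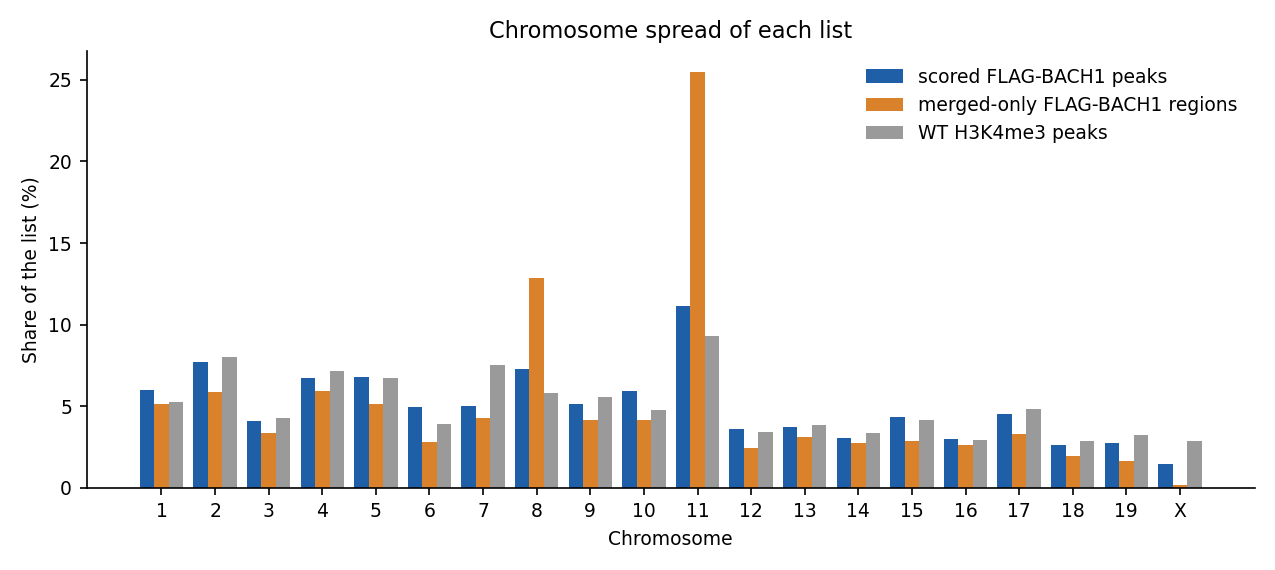
Bars give the share of each list on each chromosome in percent, for scored FLAG-BACH1 peaks, merged-only regions and WT H3K4me3 peaks. Merged-only regions stand at 25.5% on chromosome 11 and 12.8% on chromosome 8, and the other autosomes stay at or below 5.91%.

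Per chromosome length the contrast was larger for what was added than for the scored list. Length was taken as the highest position in any peak list of the series. Scored peaks stood at 1.95 per Mb on chromosome 11 and 1.18 on chromosome 8, against 0.519 to 1.02 with a median of 0.709 on the other 17 autosomes. Merged-only regions stood at 15.1 per Mb on chromosome 11 and 7.01 on chromosome 8, against 1.35 to 2.73 with a median of 1.94 on the other autosomes. Chromosome X had 0.186 scored peaks and 0.0720 merged-only regions per Mb.

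Set against promoter marks, scored peaks on chromosomes 11 and 8 stayed within the range of the other autosomes, above its median, and the added regions lay outside it. Per 100 WT H3K4me3 peaks, scored peaks came to 13.6 on chromosome 11 and 14.2 on chromosome 8. The other 17 autosomes ranged from 7.57 to 14.4, with a median of 10.9. Merged-only regions came to 105 and 84.3 on chromosomes 11 and 8, above the range of 19.6 to 37.3 on the other autosomes. On chromosome X both were below the autosomes, at 5.77 scored peaks and 2.23 merged-only regions per 100 H3K4me3 peaks. Per 100 genes of the RNA table, scored peaks numbered 18.5 on chromosome 11 and 18.2 on chromosome 8, against 6.56 to 15.3 on the other autosomes, and merged-only regions 142 and 108, against 18.8 to 41.3. Genes at a mean of at least 1 TPM, an RNA level scaled by transcript length and library size, in the 3 WT RNA libraries numbered 737 on chromosome 11 and 487 on chromosome 8, against 227 to 695 on the other autosomes. Across the 19 autosomes, the number of scored peaks had a Pearson correlation of 0.90 and a Spearman correlation of 0.93 with the number of WT H3K4me3 peaks. For merged-only regions these were 0.70 and 0.94, and 0.90 and 0.94 without chromosomes 8 and 11, all as descriptions over chromosomes that share gene density and length.

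The excess of merged-only regions ran along the whole of both chromosomes. Each of the 13 intervals of 10 Mb on chromosome 11 held 36 to 306 of them, or 63.2 to 204 per 100 WT H3K4me3 peaks. Each of the 14 on chromosome 8 held 4 to 135, or 51.2 to 133 per 100 H3K4me3 peaks. The last interval of each was cut short, since positions ended at 121.8 Mb on chromosome 11 and 131.7 Mb on chromosome 8. On chromosome 11 it held 36 merged-only regions and 57 H3K4me3 peaks and gave both lowest values. On chromosome 8 it held 4 and 3, and gave both the lowest number and the highest ratio. The 231 intervals on the other autosomes held 0 to 92 merged-only regions, with a median of 28.8 per 100 H3K4me3 peaks. Of these, 10 reached 51.2 per 100, the highest at 240 in an interval of chromosome 14 with 12 merged-only regions and 5 H3K4me3 peaks. There were 7.71 merged-only regions per scored peak on chromosome 11 and 5.92 on chromosome 8, against 1.91 to 3.02 on the other autosomes and 0.387 on chromosome X.

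On the same chromosomes the scored peaks were wider, with scores like those elsewhere. Median peak width was 1027 bp on chromosome 11 and 955 bp on chromosome 8, against 720 to 838 bp on the other autosomes. Median score was 75.03 and 70.51 on these chromosomes, inside the range of 66.6 to 77.7 of the others. The 2 chromosomes together held 17.1, 19.1, 17.4 and 20.2% of the scored peaks from the lowest to the highest quartile of score. In the other 10 lists of the series, chromosome 11 held 8.24 to 12.1% and chromosome 8 held 5.64 to 9.56% of the peaks, with the highest value of each in WT NANOG replicate 2. Some widening also appeared in other lists: relative to the other autosomes, median width on chromosome 11 was 1.33 times as large for scored FLAG-BACH1 peaks and 1.02 to 1.28 times in the other 10 lists, and on chromosome 8 it was 1.24 times for scored peaks and 0.940 to 1.21 times in the other lists. The highest of these in the other lists were both in knockout H3K4me3. The lists give neither read depth nor copy number by chromosome, and the part of either in the counts and widths on chromosomes 8, 11 and X was not tested. Without chromosomes 8 and 11, 28.2% of merged regions held a scored peak, 1740 scored peaks and 4433 merged-only regions remained, and the median width of scored peaks was 771 bp.

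The scored peaks lay at H3K4me1 of WT cells more often than at H3K4me3. Of 2134, 1075 (50.4%, 48.3 to 52.5%) overlapped a WT H3K4me1 region by at least 1 bp, 774 (36.3%, 34.3 to 38.3%) a WT H3K27ac peak and 560 (26.2%, 24.4 to 28.1%) a WT H3K4me3 peak. The WT lists differ in extent, at 65.6 Mb for H3K4me1, 36.9 Mb for H3K27ac and 52.8 Mb for H3K4me3. They also differ in number of peaks, at 36001, 44579 and 18779. By the centre of the scored peak, which takes no account of its width, the shares were 40.2% at H3K4me1, 26.4% at H3K27ac and 25.3% at H3K4me3. The H3K27ac and H3K4me3 shares were thus close by centre. WT NANOG peaks were overlapped by 438 scored peaks (20.5%, 18.9 to 22.3%) in replicate 1 and 217 (10.2%, 8.96 to 11.5%) in replicate 2, with 122 (5.72%) in both. The WT NANOG lists covered 6.35 Mb in replicate 1 and 3.09 Mb in replicate 2, and by centre the shares were 17.3% and 5.15%. The histone marks and NANOG were mapped in cells without the transgene.

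Scored peaks with higher scores lay at H3K4me1 more often. From the lowest to the highest quartile of score, 42.0, 44.6, 52.9 and 62.0% of scored peaks overlapped WT H3K4me1, and the intervals of the lowest (37.9 to 46.3%) and highest (57.8 to 66.0%) quartiles did not meet. Width climbs with score too, and the centre of the peak, which takes no account of width, fell inside H3K4me1 in 33.6, 36.9, 43.2 and 47.2% of the same groups. H3K27ac was overlapped by 31.7, 33.9, 34.7 and 44.8%, and by centre in 23.6, 26.0, 24.8 and 31.1%. H3K4me3 showed no such order, at 26.5, 25.1, 23.6 and 29.8%, and neither did NANOG of replicate 1, at 18.6, 23.2, 18.4 and 21.9%.

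Merged-only regions lay less often at enhancer marks than scored peaks did, and slightly more often at promoter marks. Over the whole merged-only set H3K4me1 and H3K4me3 were level by overlap, but not by centre or by chromosome. H3K4me1 was overlapped by 50.4% of scored peaks and 30.6% (29.5 to 31.7%) of merged-only regions, H3K27ac by 36.3% and 25.8%, and NANOG of replicate 1 by 20.5% and 10.1%. H3K4me3 was overlapped by 26.2% of scored peaks and 30.9% (29.8 to 32.0%) of merged-only regions. By centre alone, which takes no account of width, the shares were 40.2% and 26.5% for H3K4me1, 26.4% and 19.5% for H3K27ac, and 25.3% and 29.6% for H3K4me3. Without chromosomes 8 and 11 the shares of scored and merged-only regions were 48.9% and 34.3% at H3K4me1 and 23.9% and 31.4% at H3K4me3. On chromosome 11 itself, H3K4me3 was overlapped by 40.8% of scored peaks and 31.7% of merged-only regions. On chromosome 8 it was overlapped by 30.1% and 26.8%, so the overall order did not hold on either chromosome. H3K4me1 was overlapped by 53.4% and 21.3% on chromosome 11 and by 62.2% and 31.3% on chromosome 8. Merged-only regions thus lay at H3K4me3 more often than at H3K4me1 on chromosome 11, and less often on chromosome 8. NANOG of replicate 2 was overlapped by 10.2% of scored peaks and 7.80% of merged-only regions, but by 8.28% and 8.23% without chromosomes 8 and 11, and by 21.0% and 6.71% on chromosome 11.

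**Figure D5:**
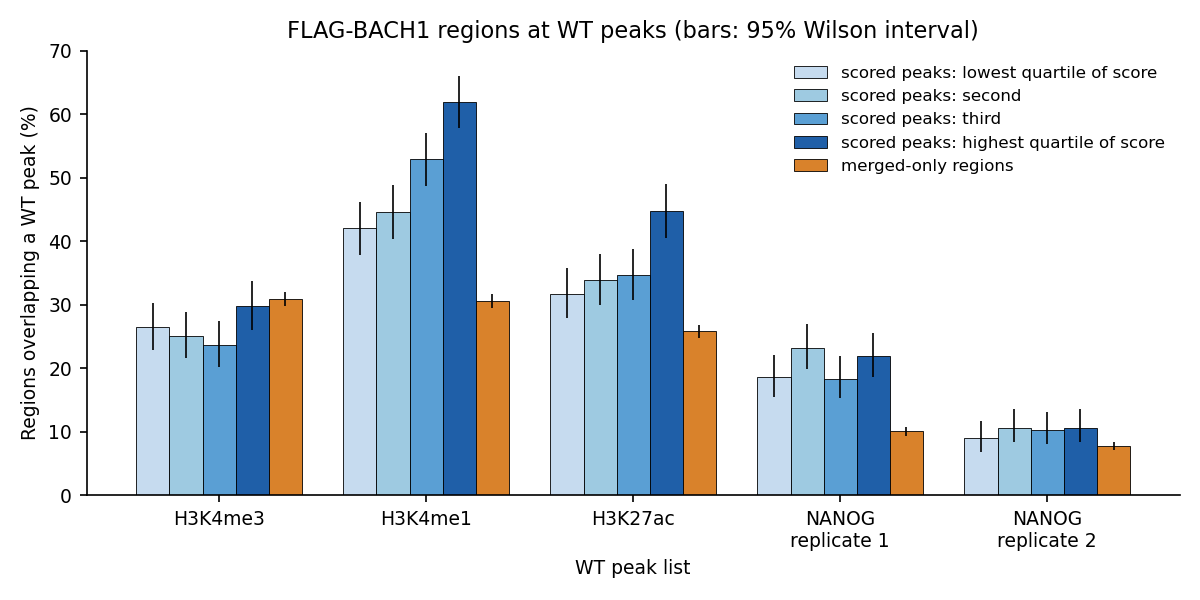
Bars give the share of FLAG-BACH1 regions that overlap a WT peak of each list, for quartiles of the scored list from lowest to highest score and for merged-only regions, with 95% Wilson intervals. At H3K4me1 the share climbs from 42.0 to 62.0% over the quartiles, with merged-only regions at 30.6%.

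By combination of marks, the largest group of scored peaks had none. No WT histone mark was found at 690 scored peaks (32.3%) and at 3395 merged-only regions (47.2%). H3K4me1 alone was found at 548 scored peaks (25.7%) and 1088 merged-only regions (15.1%), and H3K4me1 with H3K27ac, the mark pair of active enhancers, at 263 (12.3%) and 307 (4.27%). H3K4me3 with H3K27ac, the pair of active promoters, was found at 252 scored peaks (11.8%) and 939 merged-only regions (13.1%). All 3 marks were found at 186 (8.72%) and 430 (5.98%). The median score was 66.1 at unmarked peaks, 76.5 at H3K4me1 alone, 83.2 at H3K4me1 with H3K27ac, 64.8 at H3K4me3 with H3K27ac and 85.0 at all 3 marks, and the quartiles of all these groups overlapped.

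The share of scored peaks at a mark differed between knockout and WT lists in the direction of the lists' lengths. For H3K4me3 it was 15.7% in the knockout list of 11157 peaks and 26.2% in the WT list of 18779. For H3K27ac it was 23.1% in the knockout list of 25755 and 36.3% in the WT list of 44579. For H3K4me1 it was 66.5% in the knockout list of 54227 and 50.4% in the WT list of 36001. NANOG gave 6.28% in the knockout list of 2071 and 20.5% in the WT list of 9247 in replicate 1, but 12.8% in the knockout list of 20025 and 10.2% in the WT list of 10031 in replicate 2. In each of these 5 pairs the longer list had the larger share, so a difference between genotypes at these peaks cannot be told apart from list length.

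WT peaks at scored FLAG-BACH1 peaks were then followed into the knockout lists. Of 550 WT H3K4me3 peaks at a scored peak, 60.7% (56.6 to 64.7%) overlapped a knockout H3K4me3 peak, against 59.5% of all WT H3K4me3 peaks. Of 1048 WT H3K4me1 regions at a scored peak, 96.9% overlapped a knockout region, against 86.5% of all. For H3K27ac the share was 61.2% of 840, against 46.1% of all. For NANOG it was 31.6% of 440 in replicate 1, against 21.4% of all, and 45.4% of 229 in replicate 2, against 31.0% of all. WT peaks at scored FLAG-BACH1 peaks were also wider than all WT peaks, with median widths of 3186 against 2446 bp for H3K4me3, 2540 against 1189 bp for H3K4me1, 923 against 688 bp for H3K27ac and 788 and 310 against 578 and 263 bp for NANOG in replicates 1 and 2. They were also stronger by the authors' values, with a median score of 349 against 296 for H3K4me3 and 310 against 121 for H3K27ac, and a median fold enrichment of 3.04 against 2.92 for H3K4me1 and of 5.27 and 5.98 against 4.80 and 5.52 for NANOG in replicates 1 and 2. WT peaks at merged-only regions were kept in 69.4% for H3K4me3, 95.8% for H3K4me1, 63.5% for H3K27ac and 35.3 and 35.2% for NANOG in replicates 1 and 2, so a kept share above that of all WT peaks was not particular to the scored list. The part of peak width and strength in these shares was not tested.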

How the data were processed

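Regions were taken whole from the authors' deposited FLAG-BACH1 lists. Per the submitters' processing notes, the tools for these samples were Trim Galore, Bowtie2, MACS2, STAR, StringTie 1.3.4d and limma with build mm9, without a step for each. The deposited scored list, like the H3K4me3 and H3K27ac lists, has the older MACS layout with a score of 10 times −log10 p. For NANOG and H3K4me1, the deposited columns follow MACS2, whose fold enrichment ratio ranked peaks within a list. The merged list deposited by the authors has positions and no score. The authors' TPM of the 3 WT RNA libraries and the deposited gene annotation gave listed and expressed genes per chromosome; 3 knockout TPM columns were not used.

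Overlap meant at least 1 bp, and nearness 10 kb edge to edge. Python 3.11.15, numpy 2.4.6, scipy 1.17.1, pandas 2.3.3 and matplotlib 3.10.9 were used, and interval functions were tested on simulated intervals. No count or depth per region was available, so no test was run. Named regions were the 10 highest scores, the 3 widest scored and merged-only regions, the largest groups within 10 kb, and, chosen after their values were seen, the peak ranked 12th, the narrowest peak, the longest gap and the regions of unusual merging. Gene names and sequences at the regions are not given, since no mm9 genome was used here. Lists and choices were made with earlier results of these data known.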

Additional observations from a re-analysis of the deposited data

How the results depend on the processing

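No paired analysis was possible because no result comes from a test. Of 48 alternatives for 17 results, 12 stayed within the interval of the value reported, or within 1.5 times a count, and 36 did not. Leaving out chromosomes 8 and 11 and the knockout NANOG list of replicate 2 were chosen after seeing the data. At a score of at least 100, 638 peaks remained, with a median width of 982.5 bp, 4.70% with a neighbour within 10 kb, a median nearest distance of 666 kb, 6.84% of merged regions holding one, 0.616, 0.380 and 0.0720 peaks per Mb on chromosomes 11, 8 and X, and 28.4, 60.8 and 42.5% at WT H3K4me3, H3K4me1 and H3K27ac. The share with a neighbour was 5.95% within 5 kb and 14.3% within 20 kb. Merged regions in place of scored peaks gave 16.997 and 8.19 per Mb on chromosomes 11 and 8 and 29.8, 35.2, 28.2 and 12.5% at WT H3K4me3, H3K4me1, H3K27ac and NANOG. By centre, 40.2, 26.4 and 17.3% lay at WT H3K4me1, H3K27ac and NANOG, and 56.7 and 16.2% at knockout H3K4me1 and H3K27ac. The stronger 50% of each WT list gave 14.3% at H3K4me3, 32.7% at H3K4me1, 27.3% at H3K27ac and 12.1% at NANOG. Without chromosomes 8 and 11 the values were a width of 771 bp, 7.59% with a neighbour, a nearest distance of 199.6 kb, 28.2% of merged regions, and 23.9 and 33.7% at WT H3K4me3 and H3K27ac. Without replicate 1 of NANOG, 12.8% lay at knockout and 10.2% at WT NANOG peaks. A stricter score, another window and the longer merged list change counts, densities or distances by construction. The 36 alternatives outside therefore do not all speak to how stable a result is. The cause of the other differences was not tested. With 1 sample and no read depth, the lists cannot separate weak binding from background near the threshold.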

Other observations

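Overlap with NANOG of replicate 1 varied with the histone marks at a FLAG-BACH1 region. Shares of replicate 2 by class, and NANOG shares over all WT regions of each class, are not given here. Whether the pattern is particular to FLAG-BACH1 regions was not tested. Median width of scored peaks was 821.5 bp with H3K4me1 alone and 954 bp with H3K4me1 and H3K27ac. It was 885 bp with H3K4me3 and H3K27ac and 670 bp with no mark. A WT NANOG peak of replicate 1 was found at 35.2% of the 548 scored peaks with H3K4me1 alone and at 34.6% of the 263 with H3K4me1 and H3K27ac. It was found at 11.9% of the 252 with H3K4me3 and H3K27ac and at 5.94% of the 690 with no mark. In merged-only regions these 4 classes stood at 29.8% of 1088, 27.04% of 307, 5.01% of 939 and 2.47% of 3395. The other 4 classes did not all keep their order. H3K27ac alone had 2 of 73 scored peaks (2.74%) and 10 of 180 merged-only regions (5.56%). H3K4me3 alone had 5 of 44 (11.4%) and 37 of 476 (7.77%), so the scored shares of these 2 classes rest on few peaks. H3K4me3 with H3K4me1 had 28.2% of 78 and 19.2% of 375, and all 3 marks had 29.0% of 186 and 15.3% of 430. A NANOG summit of replicate 1 lay within 100 bp of the centre of 166 scored peaks (7.78%) and 249 merged-only regions (3.46%). For replicate 2 these were 78 scored peaks (3.66%) and 198 merged-only regions (2.75%). Within 1 kb the shares of scored peaks and merged-only regions were 20.7% and 11.5% for replicate 1 and 11.25% and 10.99% for replicate 2.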
